A study of Mus musculus with 3 samples.

Results

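Transcription factors that set and hold the identity of T cells were followed here as 10 genes: Runx1, Runx3, Cbfb, Ets1, Fli1, Ikzf1, Ikzf3, Gata3, Bcl11b and Zbtb7b. They were chosen by name, for what the factors are known to do and not for a measured value. Earlier results of these data were known when they were chosen. The genes were found by symbol among the 50600 genes of each count file. All 10 were present, each as 1 gene. RNA came from T-helper 1 (Th1) cells of C57BL/6NJ mice, CD4 T cells differentiated in culture, and was sequenced as 3 libraries of a single group. The file headers carry 24 hr, and the labels give no genotype change, no other treatment, an unknown age, a sex that was not collected and the same donor entry for all libraries. Whether replicates 1, 2 and 3 came from separate animals or cultures is not stated, so p-values between them reflect the spread of these samples alone, and that spread may be technical. The assay was labelled as total RNA sequencing, while the protocol named beside it is for polyA-selected RNA. With no second condition, the questions are how high each factor gene stood, which gene lies on the strand opposite to it, and how far the libraries differed.

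RUNX proteins bind DNA as partners of CBFβ, the product of Cbfb, which itself does not touch DNA, and they silence Cd4 in cells bound for the CD8 lineage. Ets1 and Fli1 encode ETS-domain activators used across lymphoid and blood cells, while Ikaros (Ikzf1) and Aiolos (Ikzf3) are zinc finger proteins that work largely with the NuRD chromatin remodelling complex. GATA-3, Bcl11b and ThPOK (Zbtb7b) act at successive steps in the thymus: commitment to the T lineage needs GATA-3 and Bcl11b, and the choice of the CD4 lineage needs ThPOK. In the periphery GATA-3 is also the factor of T-helper 2 cells, and Runx3 acts beside T-bet in Th1 cells.

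Stretches of coding sequence that both strands use are shown first, because they are the places where Runx1 and Gata3 meet an antisense gene exon to exon. They lie where an exon of the factor gene and an exon of an antisense gene cover the same bases, so that a read pair there is assigned by its strand alone. For Runx1 all 106 shared bases are coding and lie at chr16:92613599-92613704 on the minus strand (mm10), opposite an exon of Gm26626, with a GC content of 59.4%. For Gata3 the longer of the shared stretches has 93 coding bases at chr2:9877352-9877444 on the minus strand (mm10), opposite an exon of Gm13256, with a GC content of 55.9%. Both are printed in the direction of the factor gene, in lower case throughout, from the GENCODE transcripts.
Runx1: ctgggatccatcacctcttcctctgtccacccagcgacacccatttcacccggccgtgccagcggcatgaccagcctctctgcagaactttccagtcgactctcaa
Gata3: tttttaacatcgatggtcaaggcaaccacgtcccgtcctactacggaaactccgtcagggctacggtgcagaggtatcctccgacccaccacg

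RUNX genes also share letters in front of their coding sequence, which are shown because the family is known to bind such letters itself. RUNX proteins recognise TGTGGT, and a repeat that holds the complement of these letters at 2 places, AACCACAGAACCACA, was searched on both strands of RefSeq promoter windows (GRCm38.p6, 250 bases before to 50 after a start). Capitals mark the repeat in the stretches below, which lie at chr4:135120502-135120531 on the plus strand for Runx3, chr16:92826026-92826055 on the minus strand for Runx1 and chr17:44814584-44814613 on the minus strand for Runx2, the third gene of the family.
Runx3: ggtccctcAACCACAGAACCACAaggccag
Runx1: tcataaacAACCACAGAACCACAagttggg
Runx2: tcacaaacAACCACAGAACCACAagtgcgg

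The repeat began 135 bases before the start of Runx3, and at position 28 and 23 counted from the start of Runx1 and Runx2. It was held by 4 of 32851 windows (0.0122%), those of the 3 RUNX genes and of Gm16225, a noncoding gene that runs away from Runx3 and whose window overlaps that of Runx3. A second annotated window of Runx1 and of Runx3 did not hold it. Windows were given for 7 of the 10 factor genes. Ets1, Fli1 and Ikzf3 had none. The short letters TGTGGT, which every window with the repeat also holds, occurred in 16.8% of all windows. Among the factor genes they occurred in 3 of 11 windows, which belong to Runx1, Runx3 and Zbtb7b. The second windows of Runx1 and Runx3 held neither the repeat nor the short letters. A match of letters is a description, and neither it nor the share of windows was tested or set against binding data.

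Total counts were 3553547, 2945353 and 3369468 read pairs in replicates 1, 2 and 3, and the factor genes together took 2442, 1322 and 2060 of them. Levels are TPM, counts per base of exon scaled to the same sum in each library, given as mean ± SD (n = 3). Where a gene had no count, up to 3 counts remain possible, equal to 0.844, 1.02 and 0.89 CPM (counts scaled to library size) in the same order. Intervals and this floor cover counting error only. All 7 markers of CD4 T cells reached 1 TPM in each library (detected), with Trac leading at 196 ± 73.4 TPM, and their summed level was 796, 422 and 670 TPM. Markers of other cells were mostly at or near 0: Ms4a1 and Ebf1 of B cells, Ncr1, Klrb1c, Klrk1 and Klra8 of NK cells, Itgam, Lyz2 and Flt3 of myeloid cells, and Gata2, Hba-a1, Hbb-bs, Ms4a2 and Pf4 of erythroid, mast and platelet cells had no count in any library. The leading gene of each of these lists stood at 7.34 ± 0.653 TPM for Cd79a, 0.522 ± 0.218 for Eomes, 160 ± 6.06 for Csf1r, which shares exon bases with Hmgxb3 on the opposite strand, and 2.33 ± 1.91 for Cpa3. Cd68, a macrophage gene, was also detected, at 22, 6 and 7 counts (4.97 ± 3.67 TPM), highest in replicate 1. Of the CD8 markers, Cd8b1 stood at 10.4 ± 2.64 TPM and Cd8a had 1 count in each library.

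The 10 factor genes all reached 1 TPM in each library, against 41.2% of 21764 protein-coding genes. Their median level was 9.18 TPM and that of all protein-coding genes 0.413 TPM. Ikzf1 led at 75.6 ± 22.6 TPM and Ikzf3 was lowest at 1.66 ± 0.444 TPM. The counts were made with strand option 1, and no source used here gives whether the library kit marks strand, or in which direction. If the option was set against a stranded kit, the counts of all 10 genes would hold only a remainder of their mRNA. The same would hold for the marker genes above and the listed genes below, where a gene without counts could still be transcribed. TPM values and the ratios between the factor genes would then rest on that remainder, and whether they do was not tested. Protein-coding genes that share exon bases with an opposite-strand gene had a median of 5.1 TPM, against 0.0966 TPM for the others. Whether the strand option has a part in this difference was not tested. In bulk RNA a lower level can also come from fewer cells with the transcript or from less transcript per cell, which cannot be told apart.

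**Figure D1:**
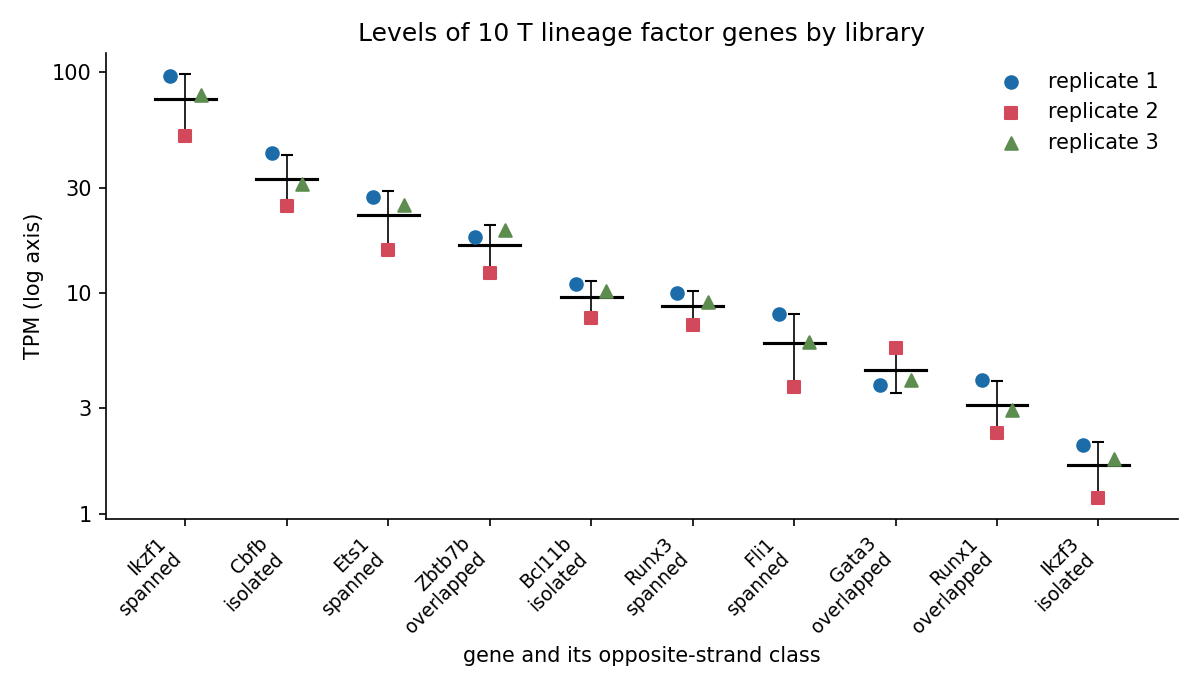
TPM (log axis) of each factor gene in replicates 1, 2 and 3 (points), with the mean (horizontal bar) and SD (vertical bar, n = 3). Genes are ordered by mean, from Ikzf1 at 75.6 to Ikzf3 at 1.66, with the class of each gene by its opposite-strand neighbours under its name, and replicate 2 is the lowest point for every gene but Gata3.

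Among the RUNX genes the shared subunit stood above the DNA-binding ones. Cbfb (ENSMUSG00000031885, mm10 chr8:105170674-105217989) had 285, 151 and 202 counts in replicates 1, 2 and 3, or 43.1, 24.8 and 31.1 TPM (33.0 ± 9.29), at the 91.7th percentile of protein-coding genes. Runx3, the RUNX gene of cytotoxic and Th1 cells (ENSMUSG00000070691, chr4:135120652-135177990), had 95, 63 and 85 counts and 9.99, 7.2 and 9.09 TPM (8.76 ± 1.42). Runx1, which acts from the blood stem cell onwards (ENSMUSG00000022952, chr16:92601466-92826149), had 91, 48 and 65 counts and 4.05, 2.32 and 2.94 TPM (3.1 ± 0.875). Replicate 1 was highest and replicate 2 lowest for each of them, and the TPM ranges of the 3 genes did not overlap. Counts of Runx1 and Runx3 were close, and the lower TPM of Runx1 goes with its 11827 exon bases against 5003.

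Within each library Runx3 was 2.47, 3.1 and 3.09 times as high as Runx1 in TPM. On the log2 scale with 1 TPM added to each gene, Runx1 relative to Runx3 was -1.26 ± 0.12, lower in 3 of 3 libraries. On raw counts without a length correction it was only -0.28. Cbfb was 3.07, 2.61 and 2.58 times the summed TPM of both RUNX genes, which gave 1.38 ± 0.15 on the same log2 scale. With 3 libraries the smallest p of an exact sign-flip test is 0.25, and the ratios between genes were not tested. Runx1 shares exon bases with an opposite-strand gene while Runx3 and Cbfb do not, so these ratios compare genes of unlike position.

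Ets1 stood above its neighbour Fli1, which lies next to it on chromosome 9 on the other strand. Ets1 (ENSMUSG00000032035, chr9:32636221-32757820) had 440, 232 and 397 counts and 27.3, 15.7 and 25.1 TPM (22.7 ± 6.18). Fli1 (ENSMUSG00000016087, chr9:32422204-32542861) had 53, 23 and 39 counts and 8.0, 3.77 and 5.99 TPM (5.92 ± 2.11). The counts of Fli1 are few, with 95% Poisson intervals of 39.7 to 69.3, 14.6 to 34.5 and 27.7 to 53.3. The ranges of the pair did not overlap, and Ets1 was 3.41, 4.15 and 4.19 times as high in the same library (1.79 ± 0.12 on the log2 scale, higher in 3 of 3). Neither gene shares exon bases with the opposite strand.

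The widest gap between paralogues was that between Ikaros and Aiolos. Ikzf1 (ENSMUSG00000018654, chr11:11685003-11772926) had 1055, 519 and 857 counts and 96.1, 51.4 and 79.4 TPM, at the 95.9th percentile of protein-coding genes, and took 43.2%, 39.3% and 41.6% of all counts on the factor genes. Ikzf3 (ENSMUSG00000018168, chr11:98464902-98546031) had 34, 18 and 29 counts and 2.04, 1.18 and 1.77 TPM. The Poisson intervals of its raw counts were 23.5 to 47.5, 10.7 to 28.4 and 19.4 to 41.6. They overlapped, but they take no account of library size. Ikzf1 was 47.0, 43.7 and 44.8 times as high as Ikzf3 in TPM, or 4.81 ± 0.21 on the log2 scale with 1 TPM added, which understates the gap of a gene as low as Ikzf3. With 0.1 TPM added it was 5.41.

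Of the genes for commitment and for the choice of the CD4 lineage, Zbtb7b was the highest. Zbtb7b (ENSMUSG00000028042, chr3:89377644-89394776) had 191, 120 and 202 counts and 18.0, 12.3 and 19.3 TPM (16.5 ± 3.74). Bcl11b (ENSMUSG00000048251, chr12:107910403-108003602) had 169, 109 and 154 counts and 11, 7.69 and 10.2 TPM (9.6 ± 1.71). Gata3 (ENSMUSG00000015619, chr2:9857078-9890034) had 29, 39 and 30 counts and 3.84, 5.61 and 4.04 TPM (4.49 ± 0.97). It was the single factor gene with its highest TPM in replicate 2. The intervals of its raw counts, 19.4 to 41.6, 27.7 to 53.3 and 20.2 to 42.8, overlapped, but they take no account of library size. The TPM ranges of Zbtb7b, Bcl11b and Gata3 did not overlap.

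Ratios to Gata3 were lowest in replicate 2. Zbtb7b was 4.69, 2.19 and 4.79 times as high as Gata3 (1.66 ± 0.57 on the log2 scale), and Bcl11b was 2.86, 1.37 and 2.52 times as high (0.95 ± 0.49). Zbtb7b relative to Runx3, the factors of the CD4 and CD8 lineages, was 1.8, 1.7 and 2.13 in TPM, or 0.83 ± 0.16 on the log2 scale. Each of these was higher in 3 of 3 libraries. Gata3 and Zbtb7b share exon bases with an opposite-strand gene, while Bcl11b and Runx3 do not. The ratios of Bcl11b to Gata3 and of Zbtb7b to Runx3 thus compare genes of unlike position. Cd4, which Runx3 represses and ThPOK keeps active in other settings, had 979, 506 and 880 counts (105 ± 29.7 TPM).

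In the order of mean TPM, neighbours were apart at 3 steps only, where the ranges over libraries did not overlap. Ikzf1 was 2.29 times the mean of Cbfb, Zbtb7b 1.72 times that of Bcl11b and Runx1 1.86 times that of Ikzf3. Cbfb, Ets1 and Zbtb7b formed a run of overlapping neighbours, as did Bcl11b, Runx3, Fli1, Gata3 and Runx1. Within a library the upper gene of each neighbouring pair was the higher one in 3 of 3 libraries, except that Fli1 over Gata3 and Gata3 over Runx1 held in 2 of 3.

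Position relative to opposite-strand genes divided the factor genes, and the classes bear on what a count holds. Runx1, Gata3 and Zbtb7b share exon bases with an opposite-strand gene (overlapped), Runx3, Ets1, Fli1 and Ikzf1 have one inside or across their span without shared exon bases (spanned), and Cbfb, Ikzf3 and Bcl11b have none within 5000 bases (isolated). Overlapped genes were 16.2% of all genes and took 68.0%, 77.5% and 70.3% of the counts in replicates 1, 2 and 3. Among protein-coding genes of their own class Ikzf1, Cbfb and Ets1 stood at the 99.1th, 96.2th and 94.7th percentile, while Runx1 and Gata3 were at the 65.0th and 69.5th percentile of all protein-coding genes and at the 42.9th and 48.2th of the overlapped ones.

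Antisense genes opposite Runx1 and Gata3 were counted far more than the factor genes. Gm26626 (ENSMUSG00000097139, chr16:92612824-92620032), an antisense gene of 713 exon bases, had 386, 328 and 354 counts. Per kb of exon it had 541, 460 and 496 counts, which was 70.4, 113 and 90.3 times the value of Runx1. Runx1 held 19.1% (exact binomial 95% interval 15.6 to 22.9), 12.8% (9.56 to 16.6) and 15.5% (12.2 to 19.3) of the counts of the pair. These intervals overlap between all 3 libraries, which is no test of whether the shares differ, and the mean share was 15.8% ± 3.16. The share holds for strand option 1 as the authors set it, and with the strand of the library unknown it is a share of assigned counts, not of transcripts. The bases printed above for Runx1 are all that the pair shares, 106 of the 713 exon bases of Gm26626. Counts are given per gene, so where within Gm26626 its read pairs lie is not known.

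Gm13256 (ENSMUSG00000086618, chr2:9877256-9878869) has 520 exon bases, of which 155 are shared with Gata3: the 93 coding bases printed above and 62 bases of untranslated exon. It had 225, 175 and 199 counts, and per kb it stood 59.4, 34.3 and 50.7 times as high as Gata3. The share of Gata3 in the counts of this pair was 11.4% (7.78 to 16.0), 18.2% (13.3 to 24.1) and 13.1% (9.02 to 18.2), with a mean of 14.2% ± 3.54, and it rests on the same strand option. It was highest in replicate 2, where Gata3 itself was highest and Gm13256 lowest in raw counts. The intervals of the share overlapped, and whether it differed between libraries was not tested. A same-strand gene, 9230102O04Rik, shares 77 exon bases with Gata3 and had 0, 0 and 2 counts.

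Zbtb7b showed the reverse order. Its antisense gene Gm15417 (ENSMUSG00000074466, chr3:89391850-89398779) shares 116 bases of untranslated exon with it and had 8, 5 and 7 counts, so that Zbtb7b held 96.0%, 96.0% and 96.7% of the counts of the pair. Per kb Gm15417 was at 0.14, 0.14 and 0.116 times Zbtb7b. Opposite Ikzf1, Gm12000 (ENSMUSG00000073145, chr11:11695133-11696439) lies in an intron and shares no exon base. It had 190, 193 and 215 counts, and per kb it stood 1.65, 3.42 and 2.3 times as high as Ikzf1. The ratio was highest in replicate 2, where Ikzf1 was lowest and Gm12000 was not. Other opposite-strand genes within these spans had few counts: Gm11999 at the start of Ikzf1 had 20, 17 and 21, Gm27240 in Ets1 had 2, 6 and 5, Gm27201 in Fli1 had 1, 0 and 0, and Gm16224 in Runx3 had none.

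**Figure D2:**
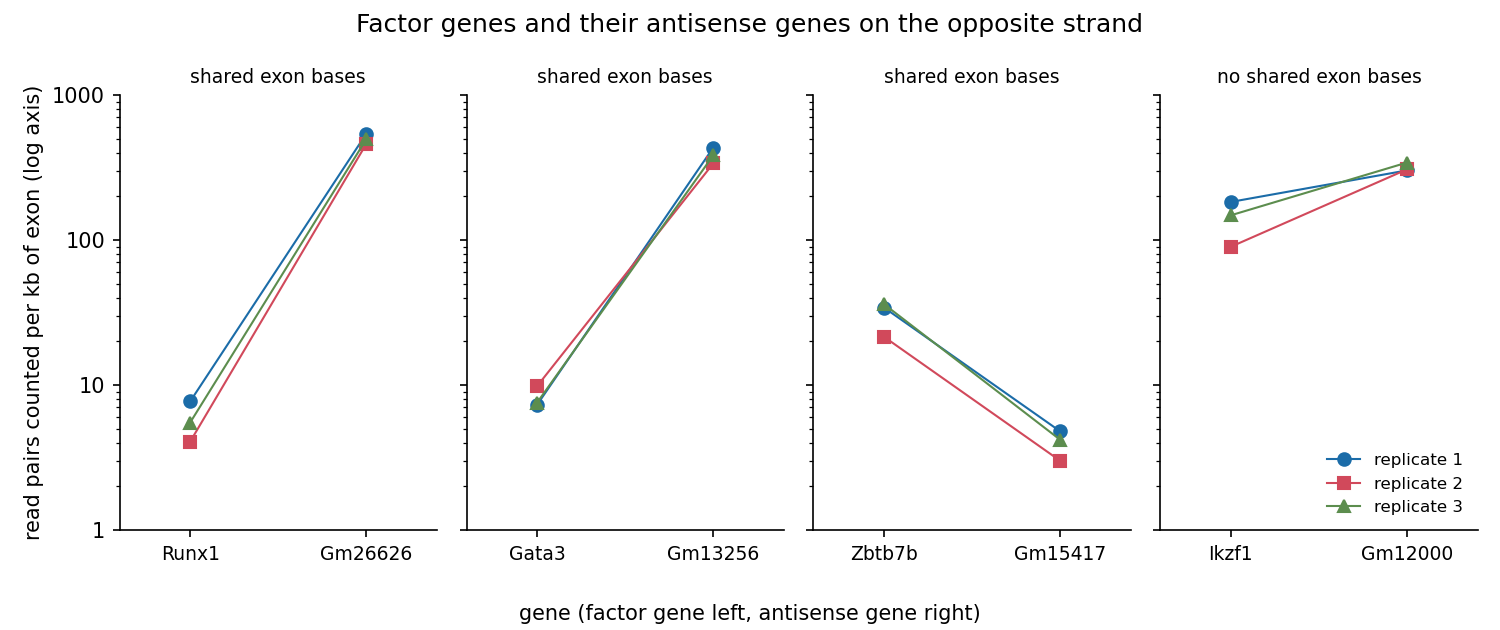
Counts of read pairs per kb of exon (log axis) for 4 factor genes (left of each panel) and an antisense gene (right), joined within a library. The lines rise steeply for Runx1 to Gm26626 and Gata3 to Gm13256, fall for Zbtb7b to Gm15417, and rise less for Ikzf1 to Gm12000, which shares no exon base with it.

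**Figure D3:**
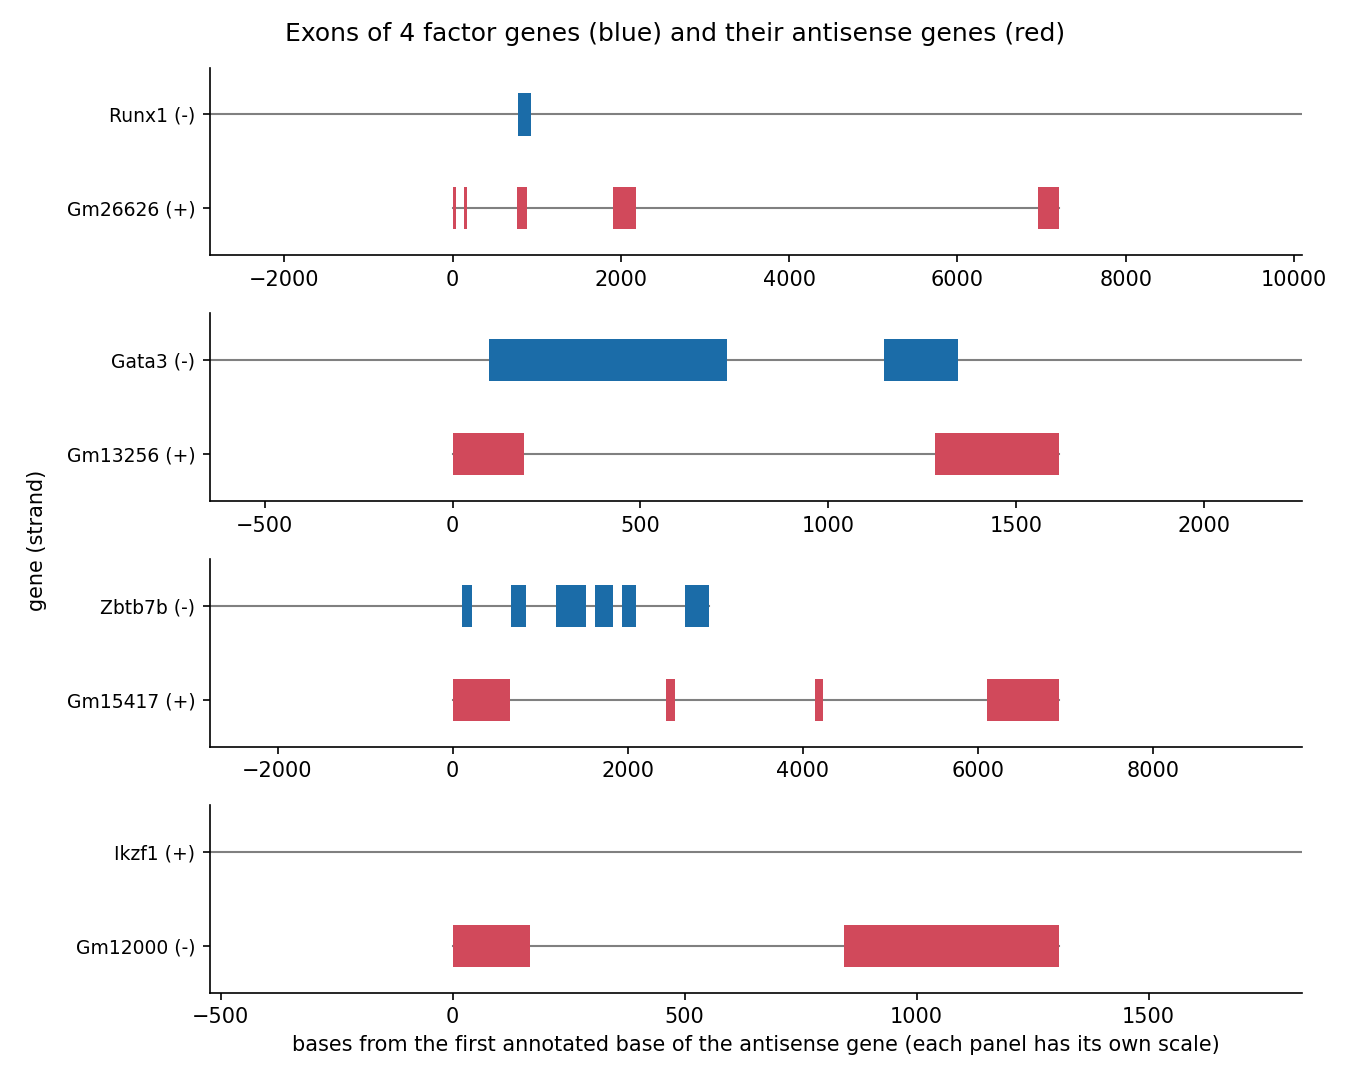
Exons (boxes) and spans (lines) of 4 factor genes and their antisense genes, drawn to scale from the first annotated base of the antisense gene, in bases, with a scale of its own in each panel. Exons of Runx1, Gata3 and Zbtb7b stand above an exon of their antisense gene for 106, 155 and 116 bases, while Ikzf1 has no exon in the stretch that holds Gm12000.

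The excess of the antisense gene was common in these libraries. Of 1497 pairs of a protein-coding gene and an opposite noncoding gene that share exon bases and had at least 30 counts over the libraries, the noncoding gene had more counts per kb in 82.7%, and over 10 times as many in 59.5%. Runx1 and Gata3 belong to the latter and Zbtb7b to the remainder. Where spans crossed without shared exon bases, the noncoding gene was higher in 32.4% of 695 such pairs, and over the factor genes in 1 of 5, that of Ikzf1. The order within the pairs of Runx1 and Gata3 was thus that of most such pairs, and in shared bases their read pairs cannot be told apart beyond the assigned strand. Whether the strand option has a part in the excess of the antisense genes was not tested.

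Replicate 2 had the lowest TPM for 9 of the 10 factor genes, and replicate 1 the highest for 8. Together the factor genes took 0.0687%, 0.0449% and 0.0611% of all counts. The share of counts on overlapped genes moved the other way, and the summed level of CD4 T cell markers moved the same way. With libraries scaled by TMM (trimmed mean of M values, a size that holds the bulk of genes level), the medians still differed by class: the log2 value of replicate 2 over replicate 1 had a median of 0.42 over overlapped genes, -0.15 over spanned and -0.29 over isolated ones, against -0.04 over all genes tested. Values between libraries are therefore given both at one size per library and at sizes set within each class.

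A chi-square test of the counts against Poisson error, with Benjamini-Hochberg adjustment over 10216 genes, called 35.6% of all genes variable between libraries at an adjusted p under 0.05. Of the factor genes it called 2 of 10, Ikzf1 and Gata3. Scaled counts of Ikzf1 were 888, 687 and 811 (adjusted p = 6.29e-05), lowest in replicate 2, and its highest value was 1.29 times its lowest. Those of Gata3 were 24.4, 51.7 and 28.4 (adjusted p = 0.0122), a log2 difference of 1.08 between replicates 2 and 1. Cbfb (adjusted p = 0.0754) and Ets1 (0.0809) did not pass. The other 6 had adjusted p-values from 0.256 to 0.985. Scaled counts of Bcl11b (142, 144 and 146) and Runx3 (80, 83.4 and 80.4) differed by at most 1.02 and 1.04 times between libraries.

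With library sizes set within each class, 26.8% of all genes were called and 1 of the factor genes, Zbtb7b, at 179, 130 and 201 scaled counts (adjusted p = 0.00417, against 0.256 before). Ikzf1 was then at an adjusted p of 0.0537 and Gata3 at 0.295, with 27.1, 42.2 and 29.8 scaled counts, highest in replicate 2 still. Runx1, with 85.1, 52 and 64.5 scaled counts, was at an adjusted p of 0.0576 in the same chi-square test. Replicate 2 decided both first calls: without it Ikzf1 was at an adjusted p of 0.222 and Gata3 at 0.804. Without replicate 1, Gata3 was at 0.0507. Under negative binomial error, with a coefficient of variation of 17.9% estimated from these same libraries by edgeR, 9 of all genes and none of the 10 were called, with Gata3 alone at an unadjusted p under 0.05 (0.049, adjusted p = 0.871). Which factor genes were called variable thus depended on the scaling and the error model. Cpa3, a mast cell gene, was also highest in replicate 2, at 3, 12 and 4 counts. Gata2 and Ms4a2 of the same list had no count, and the part of such cells in the Gata3 values was not tested.

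**Figure D4:**
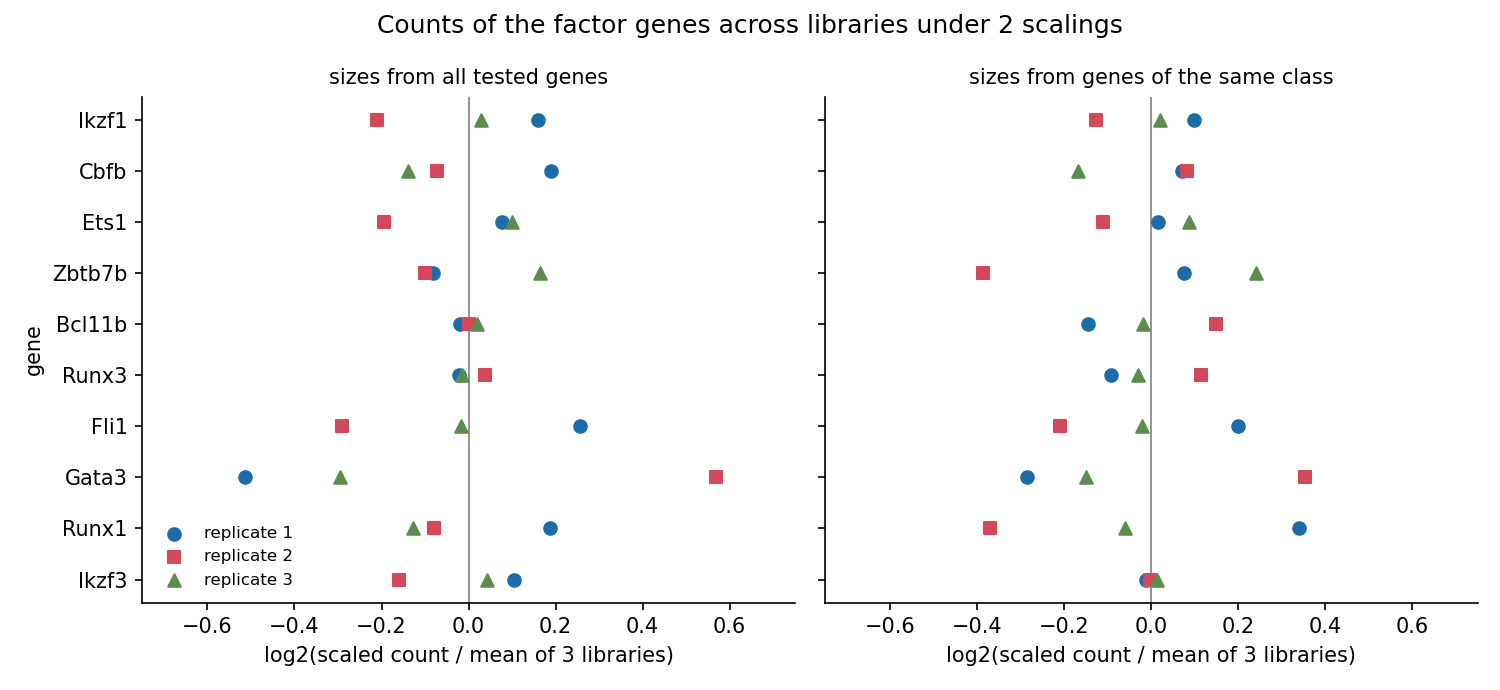
Scaled count of each factor gene in each library over its mean of 3 libraries (log2), with library sizes from all tested genes (left) and from genes of the same opposite-strand class (right). Gata3 in replicate 2 lies farthest from the mean on the left. On the right Runx1, Gata3 and Zbtb7b spread most, and the libraries of Bcl11b and of Runx3 lie together on the left only.

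Relatives and partners of the RUNX factors were detected about as often as protein-coding genes in general. Of 7 genes matched, 3 (42.9%) reached 1 TPM in every library, near the 41.2% of protein-coding genes. The same 41.2% stands beside the counts of detected genes in the lists below. Their median was 0.989 TPM, against 0.413 TPM over protein-coding genes. Of 3 RUNX relatives and partners tested the chi-square test called 0, with 0 at an unadjusted p under 0.05 and 0 with DESeq2 size factors. The corepressor genes Tle3 and Tle4 led at 8.43 ± 2.25 and 4.37 ± 1.46 TPM, followed by Cbfa2t2 at 1.38 ± 0.219, and Runx1t1 had no count. Runx2, the family member of bone, had 19, 8 and 5 counts and shares exon bases with Runx2os1. It stood at 0.651 ± 0.43 TPM, below the TPM range of both Runx1 and Runx3.

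Most ETS genes were counted. Of 16, 13 were detected, with a median of 6.1 TPM, and 3 of 12 tested were called variable, against the 35.6% called over all genes. The highest were Gabpa at 130 ± 13.7 TPM, Elf1 at 27.5 ± 4.51 and Elk3 at 18.6 ± 2.78, which share exon bases with Atp5j, Wbp4 and Cdk17 on the opposite strand. Ets1, at 22.7 TPM, lay between Elf1 and Elk3 in mean. Ehf, an epithelial gene, and Spi1, which encodes the myeloid and B cell factor PU.1, had no count in any library.

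The NuRD genes with which Ikaros works stood higher than most factor genes. In the list of Ikaros relatives and NuRD genes 9 of 11 were detected, with a median of 38.9 TPM, and 4 of 9 tested were called, near the 35.6% of all genes. Rbbp7, a histone-binding subunit that shares exon bases with Txlng, was at 109 ± 28.9 TPM, the remodeller Chd4 at 96.8 ± 16.2 and Mbd3 at 85.1 ± 17.3. The other Ikaros family genes were low. Ikzf5 was at 6.12 ± 1.04, Ikzf4 at 1.85 ± 0.847 and Ikzf2, which encodes Helios, at 0.309 ± 0.182 TPM, and all 3 share exon bases with an opposite-strand gene.

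The GATA list held Gata3's cofactor and little else. Zfpm1, which encodes the GATA partner FOG-1, stood at 23.4 ± 4.32 TPM, above Gata3 itself, and was the single gene of 6 detected. Gata2, Gata4, Gata6 and Zfpm2 had no count, and Gata1 had 3, 6 and 5. The median was 0 TPM, and the 1 gene tested was called neither at TMM sizes, adjusted or not, nor with DESeq2 size factors. Among the relatives of Bcl11b and ThPOK, 5 of 9 were detected, with a median of 4.09 TPM, and 2 of 5 tested were called, again near the 35.6% of all genes. Zbtb32, a gene of activated lymphocytes, led at 45.7 ± 15.7 TPM, before Zbtb17 at 16.4 ± 1.61 and Patz1 at 10.3 ± 0.658, which overlap exons of Spen and Gm12592. Bcl11a, Zbtb7c and Zbtb16, the gene of the innate-like T cell factor PLZF, had no count.

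Other factors of the T lineage were mostly present. Of 17, 14 were detected, with a median of 5.62 TPM, and 4 of 13 tested were called, near the same 35.6%. Tcf7, which encodes TCF-1, stood at 105 ± 23.7 TPM, the E protein inhibitor Id3 at 57.0 ± 19.5 and the E protein gene Tcf3 at 30.7 ± 7.02, while Tox2 had no count. Of 24 genes known to be controlled by the 10 factors, 13 were detected, with a median of 2.78 TPM, and 5 of 11 tested were called (4 with DESeq2 size factors), against 35.6% over all genes. Il2, Trac and Trbc2 led at 265 ± 118, 196 ± 73.4 and 117 ± 35.2 TPM. The thymic genes Rag1, Rag2 and Ptcra, and the Th2 cytokine gene Il5, had no count in any library, while Dntt, another thymic gene, had 2, 2 and 5. The Th2 cytokine gene Il4 had 6, 11 and 9 counts (3.88 ± 1.28 TPM) and was detected. Tbx21, the gene of T-bet, had 15, 11 and 8 counts (2.47 ± 0.727 TPM), and Ifng, the Th1 cytokine gene, had 2, 2 and 1, at or under the 3 counts that remain possible where none is seen.

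**Figure D5:**
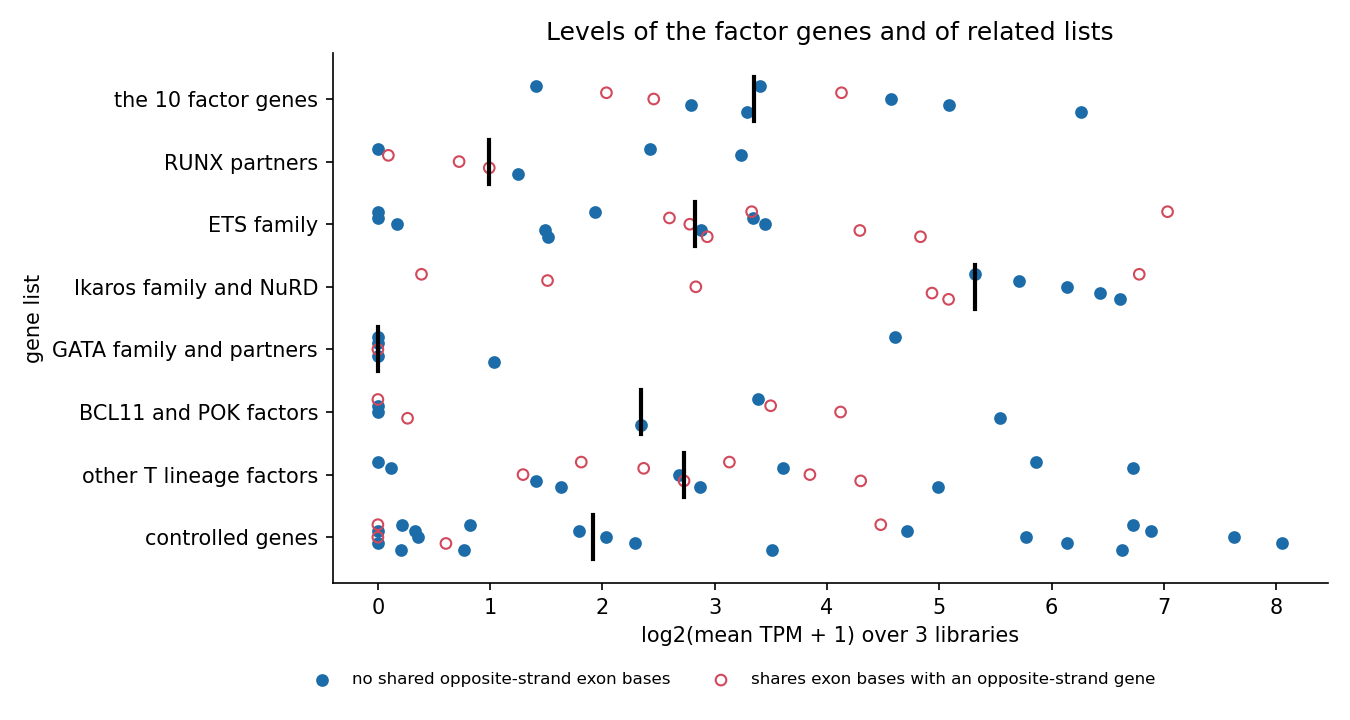
Mean level over 3 libraries, as log2(TPM + 1), of the 10 factor genes and of each gene in 7 related lists, with the median of the list as a vertical bar. Open circles share exon bases with an opposite-strand gene. All factor genes lie above 1, while the GATA list has its median at 0 and the Ikaros and NuRD list stands highest.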

How the data were processed

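The authors deposited raw counts of read pairs per gene for 3 libraries, made by featureCounts 1.4.6-p4 from exons of each GENCODE release M13 gene, with strand option 1 and both ends aligned, per the file headers, on mm10 per the labels. No source used here gives the aligner's version. Exon length is the deposited one, another unit in the same files. TPM was computed here over all genes. Symbols came from GENCODE release M21 and matched 50376 identifiers, leaving 224 without one. Opposite-strand classes used deposited exon coordinates, with "near" at 5000 bases. Promoter sequences are from RefSeq.

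The 10 members and all lists were chosen with earlier results of these data known, so no list is independent support. The rule for named genes took all members, genes sharing exon bases with them, and the 3 highest genes of each list, its genes at 0 where 5 or fewer, and leading markers. Runx2, Gata1, Ikzf2, Ikzf4, Ikzf5, Cd4, Cd8a, Cd68, Dntt, Il4, Tbx21, Ifng and opposite-strand genes without shared exon bases were named outside it, after their values were seen. Tle5 had no match.

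The chi-square test (2 degrees of freedom) ran over genes that passed filterByExpr, at TMM sizes from edgeR. It was tried on simulated data with counting error only, which cannot show how it behaves at the spread of these libraries. Alternatives were DESeq2 size factors, total counts, class sizes, no filter, negative binomial error and leaving out each replicate. Scaled by summed raw counts, without TMM or class sizes, no 2 libraries agreed within counting error (chi-square per gene 4.14 to 15.1). Software was R 4.3.3, edgeR 4.0.16, DESeq2 1.42.0, Python 3.11.15, numpy 2.4.6, pandas 2.3.3, scipy 1.17.1 and matplotlib 3.10.9. Counts without molecular identifiers are not independent molecules.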

Additional observations from a re-analysis of the deposited data

How the results depend on the processing

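Of 202 alternative values for 34 results, 164 were classed as the same, 25 as moved, 5 as stronger and 8 as weaker, and none reversed. For p-values the same means the same side of 0.05, and for levels, ratios and shares a move below the replicate spread. Counts of genes have neither measure, and among them 5278 and 2737 genes called were classed as the same as 3642. The 164 therefore does not mean that such counts held. Called factor genes numbered 2 at TMM sizes, 4 with total counts, 3 with no filter on low counts (Ets1 added, adjusted p = 0.0354, chi-square test of all genes), 1 with sizes within each class, 0 under negative binomial error and 0 to 2 when a replicate was left out, with 0 without replicate 2 (Cbfb and Ikzf1 at unadjusted p-values of 0.0132 and 0.0473, chi-square test of all genes). Genes called over all numbered 3642, 3675 of 19021 with no filter, 5278 with total counts, 2737 within classes, 3543 with DESeq2 size factors, 9 under negative binomial error, and 968 (without replicate 2) to 3768 (without replicate 3) when a replicate was left out. At 5 TPM, 6 factor genes were detected in every library. TPM over genes without opposite-strand overlap, which leaves 7 factor genes and a smaller total, had a median of 48.7 instead of 9.18.

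With 0.1 TPM added, log2 ratios were -1.49 for Runx1 to Runx3, 1.94 for Ets1 to Fli1 and 5.41 for Ikzf1 to Ikzf3. Raw counts, which carry gene length, gave -0.28 and 3.21 for the first 2 of these, 1.05 for Zbtb7b to Runx3, 2.33 for Zbtb7b to Gata3, 2.09 for Bcl11b to Gata3 and 0.49 for Cbfb to Runx1 plus Runx3. The cause of the other changes was not tested. No paired analysis was possible because the labels give a single group. Depth limits Ikzf3, Fli1 and Gata3 most.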

Other observations

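Same-strand genes within the spans of the factor genes had few counts. Of 8 such genes within Cbfb, Fli1 and Ikzf3, 7 had no count in any library, and Gm38346 in Fli1 had 3, 0 and 3. Next to Cbfb, Gm3830 on the same strand had 2, 2 and 1 counts. On the opposite strand, Dcst2, which ends close to Zbtb7b, had 10, 5 and 14 counts, and 4930412O13Rik inside Gata3 had 0, 3 and 1.

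Of the antisense genes, Gm26626 opposite Runx1 and Gm12000 opposite Ikzf1 were called variable between libraries at TMM sizes (chi-square test, adjusted p = 0.000765 and 0.000136), and Gm13256 opposite Gata3 was not (0.155), against 35.6% of all genes tested.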
